A study of Mus musculus with 6 samples.

Results

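The genes examined here were 34 mouse genes of fatty acid uptake and oxidation, taken by symbol from the 49315 genes of a count table. They comprised genes for uptake and binding, carnitine transfer, activation, the mitochondrial β-oxidation spiral, electron transfer, malonyl-CoA control and acyl-CoA hydrolysis, together with 1 peroxisomal enzyme. Each symbol was found once, and all 34 passed the filter on low counts, as did 15847 genes of the table. Messenger RNA had been sequenced from gastrocnemius muscle of male C57BL6J mice given an adeno-associated virus of serotype 9 (AAV9) into the muscle at 5 months of age and studied 5 months later. In AAV9-HSA-CAAHR muscles (libraries CAAHR 31, 34 and 36) the virus carried a constitutively active aryl hydrocarbon receptor (AHR), a mouse AHR without its ligand-binding domain, and in AAV9-HSA-GFP muscles (GFP 42, 43 and 46) it carried a green fluorescent protein. The transgenes were under human skeletal actin (HSA) control, which restricts expression to muscle fibres, and every library, controls included, came from muscle that had received a virus. Uninjected muscle was not analysed here. In the study's general methods the red, oxidative part of the gastrocnemius went to assays on fibre bundles and other tissue was frozen or used for mitochondria. For the virus-treated mice the study instead describes mitochondria taken from the whole muscle, without the bundle assay. Which part gave the RNA was not stated. The libraries were numbered by animal, and nothing else described how they were prepared apart from each other, so p-values measure the spread between these 3 libraries a group.

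Muscle fibres take long-chain fatty acids from circulating lipoproteins and albumin, tie them to coenzyme A and carry them into mitochondria as carnitine esters. Inside, each turn of β-oxidation passes through an oxidation, a hydration, a further oxidation and a thiolytic cleavage, and the electrons of the opening step reach the respiratory chain through electron transfer flavoprotein. Malonyl-CoA, made by acetyl-CoA carboxylase, inhibits carnitine palmitoyltransferase 1 and so sets the rate of entry, and slow and fast oxidative fibres hold more of this machinery than fast glycolytic fibres.

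Transcripts of the pathway were higher on average in AAV9-HSA-CAAHR muscles, but mainly in 2 of the 3 libraries. The log2 fold change of AAV9-HSA-CAAHR over AAV9-HSA-GFP was above 0 for 33 of the 34 genes, against 51.2% of all tested genes, and its median was 0.41 against 0.01 over all tested genes. By the edgeR quasi-likelihood test, 2 genes rose at an adjusted p under 0.05, a mitochondrial acyl-CoA thioesterase (Acot2) and malonyl-CoA decarboxylase (Mlycd), and none fell. Over all tested genes 3.04% rose and 4.57% fell, 7.6% in all, so 2 of 34 is close to the background. DESeq2 called 11 of the 34 and limma-voom with sample weights 9, all of them higher. Over all genes DESeq2 called 12.1% in both directions, with 803 of 15845 higher. Limma-voom called 9.22% in both directions, with 673 of 15847 higher. At an unadjusted p under 0.05, 14 genes were higher and 0 were lower, against 11.3% and 12.6% of all tested genes.

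Counting was deep enough for all but the scarcest of these transcripts. Library totals ran from 43432994 to 58825752 counts, of which the 34 genes took 0.712%, 0.389% and 0.656% in CAAHR 31, 34 and 36 and 0.354%, 0.381% and 0.429% in GFP 42, 43 and 46. The scarcest was Acot1, with 13 to 94 counts a library. The delivered gene checked the labels, since Ahr stood at 9.97, 22.8 and 17.3 scaled CPM (counts relative to the library total after TMM scaling) in CAAHR 31, 34 and 36 and at 1.87 to 2.55 scaled CPM in the GFP libraries. All 8 muscle markers were present, at 347 scaled CPM or more, with 4 log2 fold changes above 0 and 4 below, none called higher and 2 called lower. One of the latter was skeletal actin (Acta1), at 21660.4 to 22004 scaled CPM in AAV9-HSA-CAAHR and 35143 to 37674 scaled CPM in AAV9-HSA-GFP.

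The start sites of 3 genes and 1 gene pair are shown, because Acot2 and Mlycd were the called genes, Acsl6 is the only gene of the list whose promoter window held an element for estrogen-related receptors (ERR), nuclear receptors that bind at many oxidative genes, and Hadha with Hadhb encodes both subunits of 1 enzyme from opposite strands. The sequences are from RefSeq on GRCm38.p6, printed 5′ to 3′ on the plus strand, in lower case with the element TCAAGGTCA in capitals (it appears as its reverse complement). The first 3 are the 180 bases before the annotated start, and the last is the stretch between the start sites of Hadha, on the minus strand, and Hadhb, on the plus strand, which lie 86 bases apart.
Acot2, chr12:83987681-83987860, plus strand: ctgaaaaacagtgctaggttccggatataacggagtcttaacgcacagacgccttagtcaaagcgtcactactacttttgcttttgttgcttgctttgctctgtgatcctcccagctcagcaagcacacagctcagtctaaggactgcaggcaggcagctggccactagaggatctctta
Mlycd, chr8:119394698-119394877, plus strand: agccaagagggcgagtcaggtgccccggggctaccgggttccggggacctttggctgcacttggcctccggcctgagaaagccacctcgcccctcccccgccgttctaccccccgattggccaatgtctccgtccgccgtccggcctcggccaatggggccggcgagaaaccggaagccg
Acsl6, chr11:54303618-54303797, plus strand: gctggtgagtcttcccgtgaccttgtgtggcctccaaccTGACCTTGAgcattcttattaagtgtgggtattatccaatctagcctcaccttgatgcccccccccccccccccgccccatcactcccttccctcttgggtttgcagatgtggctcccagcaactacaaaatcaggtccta
Hadha and Hadhb, chr5:30155163-30155247, plus strand: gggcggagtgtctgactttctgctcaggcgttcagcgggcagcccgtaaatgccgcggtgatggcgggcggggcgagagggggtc

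Motifs were counted on both strands in windows from 250 bases before to 50 bases after the start, which were at hand for 28 of the 34 genes (windows for Lpl, Cpt1b, Crat, Acaa2, Decr1 and Acot13 were not used here). A listed gene counted if any of its windows held the motif, whereas the background counted each of 32851 windows (27025 genes) singly. The percentages below are therefore of unlike units, and an excess cannot be read from them. The core of the AHR response element, GCGTG, was found for 15 of 28 genes (53.6%) against 32.4% of windows. The windows of Acot2 and Mlycd did not hold it. Its longer form TNGCGTG, which contains the core, was in the window of Etfdh alone (3.57% against 5.07%). The half-site of nuclear receptors, AGGTCA, was found for 7 genes (25% against 16.3%). Its extended form TCAAGGTCA was in the Acsl6 window alone (3.57% against 0.423%), where 1 of the 2 copies of AGGTCA lay inside it. The direct repeat AGGTCANAGGTCA, bound by peroxisome proliferator-activated receptors (PPAR), was in none, against 0.0396% of all windows. A match is a run of letters and not a bound site, and an absent match says only that these letters are not in the window.

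**Figure D1:**
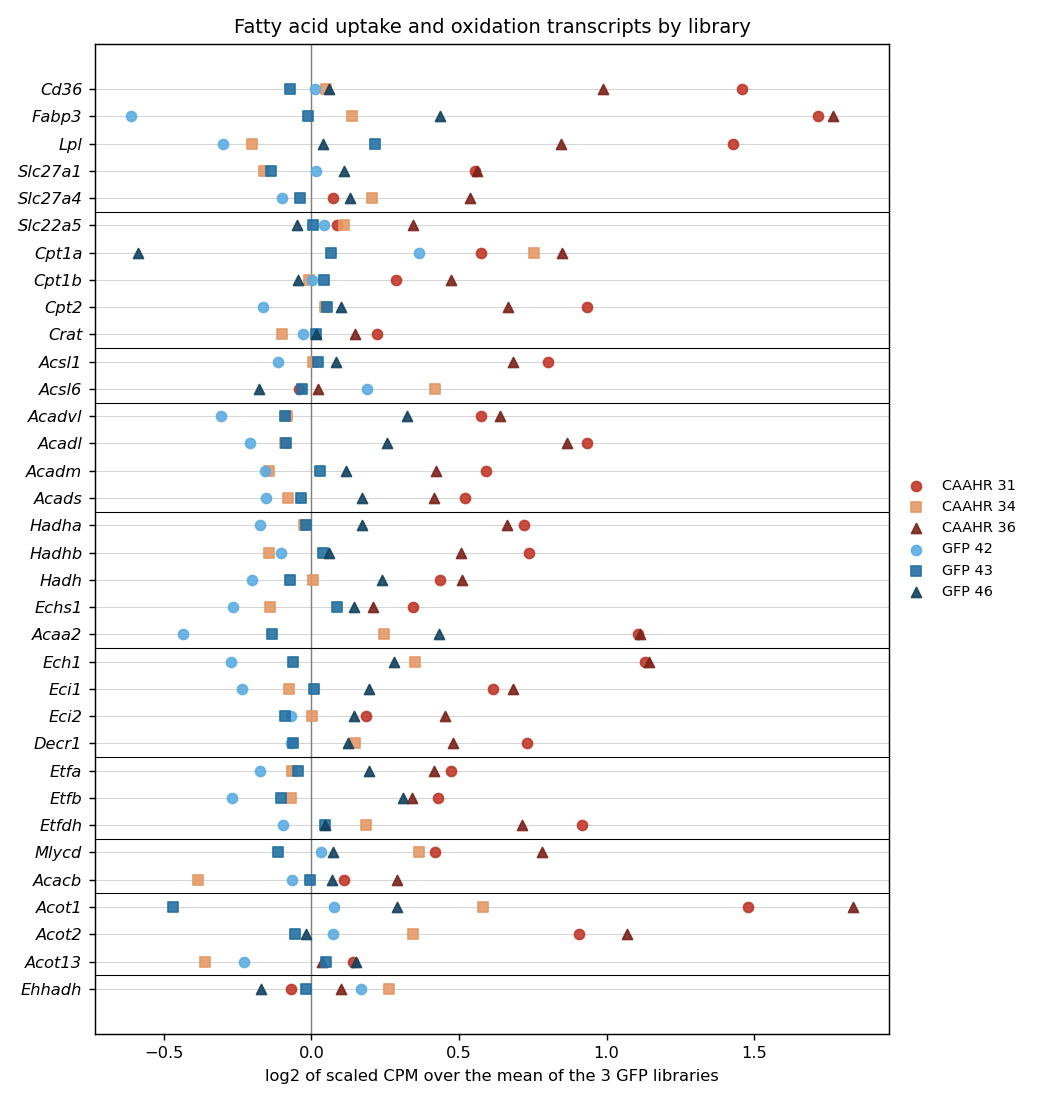
Log2 of each library's scaled CPM over the mean of the 3 AAV9-HSA-GFP libraries (horizontal axis) for the 34 genes, 1 line each, set apart by role, with 1 point for each of the 6 libraries. The points of CAAHR 31 and CAAHR 36 lie mostly to the right (medians 0.57 and 0.55), while those of CAAHR 34 lie among the controls (median 0.00).

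Read library by library, the difference was mostly one of CAAHR 31 and CAAHR 36. CAAHR 31 was above the range of the 3 GFP libraries for 30 of 34 genes (33.9% of all tested genes) and below it for 0 (31.3%). CAAHR 36 was above that range for 31 (34.6%) and below it for 0 (31.9%). CAAHR 34 was above it for 11 (32.4%), within it for 18 (35.3%) and below it for 5 (32.3%). Across all tested genes the 3 libraries thus left the GFP range about equally often, whereas for this pathway CAAHR 34 lay among the GFP libraries.

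The median log2 of each library over the mean of the GFP libraries was 0.57 in CAAHR 31, 0.00 in CAAHR 34 and 0.55 in CAAHR 36, against 0.01, -0.01 and 0.01 over all tested genes. CAAHR 34 was the lowest AAV9-HSA-CAAHR library for 29 of 34 genes, against 36% of all tested genes. The spread was therefore wider in that group, with a median coefficient of variation of 23.7% against 11.7% in AAV9-HSA-GFP (13.2% and 11.7% over all tested genes). Without CAAHR 34, the background rose to 10.7% in both directions, with 835 of 16180 genes called higher. Of the 34 genes, 20 were then called, all higher. None was called without CAAHR 31, CAAHR 36, GFP 43 or GFP 46, and without GFP 42 only Cpt1a was called. The share called over all genes fell in these fits too. It was 4.21% without CAAHR 31, 3.28% without CAAHR 36, 5.17% without GFP 42, 4.28% without GFP 43 and 3.76% without GFP 46. The counts at an unadjusted p under 0.05 were then 8 without CAAHR 31, 26 without CAAHR 34, 7 without CAAHR 36, 7 without GFP 42, 9 without GFP 43 and 17 without GFP 46. The matching shares of all genes at an unadjusted p were not computed for these fits.

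The GFP libraries were ordered too. GFP 42 was the lowest GFP library for 23 of 34 genes (32.2% of all tested genes) and GFP 46 the highest for 27 (32.9%), and the order 42, 43, 46 held for 22 (18.1%). Summed over the 34 genes, the level was 6766, 3905 and 6333 scaled CPM in CAAHR 31, 34 and 36 and 3597, 3982 and 4416 scaled CPM in GFP 42, 43 and 46. The sum in CAAHR 34 was thus below that of GFP 43 and GFP 46.

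Markers of slow fibres moved with these sums in part. All 9 markers had a log2 fold change above 0, with 1 called, and their summed level was 2783, 649 and 2518 scaled CPM in CAAHR 31, 34 and 36 against 228, 333 and 461 scaled CPM in GFP 42, 43 and 46. The slow myosin heavy chain Myh7 was at 877, 156 and 809 scaled CPM in the AAV9-HSA-CAAHR libraries and at 37.5, 52.6 and 79.5 scaled CPM in the AAV9-HSA-GFP libraries. Myh2, the myosin of fast oxidative fibres, was at 4459, 1334 and 5136 scaled CPM against 469, 1191 and 2536 scaled CPM. CAAHR 34 was again the lowest of its group, and GFP 42, 43 and 46 stood in ascending order, as in the sums of the 34 genes. Unlike in those sums, CAAHR 34 was above every control in the slow markers, at 649 against 461 scaled CPM in GFP 46. It was above the GFP range for 7 of the 9 slow markers, but within that range for Myh2. Markers of fast fibres summed to 144900, 206462 and 168987 scaled CPM against 218884, 215680 and 208814 scaled CPM. Of these 10 markers, 9 had a log2 fold change below 0, with 2 called lower. The exception was Myh1, with a log2 fold change of 0.997 (adjusted p 0.427). Myh1 was at 6052, 2082 and 5324 scaled CPM in CAAHR 31, 34 and 36. In GFP 42, 43 and 46 it was at 1327, 1311 and 4107 scaled CPM. The part of fibre composition in the results below was not tested. In bulk muscle, fewer fibres of a type and less RNA of that type per fibre cannot be told apart.

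Markers of endothelial cells, which also express Cd36, were likewise lowest in CAAHR 34. These 7 markers summed to 273, 195 and 271 scaled CPM in CAAHR 31, 34 and 36 and to 243, 201 and 247 scaled CPM in GFP 42, 43 and 46, with none called and 0 at an unadjusted p under 0.05. CAAHR 31 and CAAHR 36 were above every control and CAAHR 34 was below them all. The 7 adipocyte markers summed to 16.9, 4.39 and 23.0 scaled CPM in CAAHR 31, 34 and 36 and to 98.9, 36.7 and 79.7 scaled CPM in GFP 42, 43 and 46, with 3 called lower. The sum was lower in each AAV9-HSA-CAAHR library, and 6 of the 7 log2 fold changes were below 0. The exception was Cidea, at 1.54, 0.700 and 1.64 scaled CPM against 0.145, 0.0721 and 0.529 scaled CPM (log2 fold change 2.32, adjusted p 0.0586), where the groups did not overlap. Macrophage markers (6) summed to 9.99 to 17.9 scaled CPM against 19.9 to 41.7 scaled CPM, and B cell and plasma cell markers (5) to 0.831 to 1.20 scaled CPM against 5.01 to 35.7 scaled CPM. The study reported a local immune response to the GFP virus itself. By its quantitative PCR, selected immune genes were not lower in AAV9-HSA-CAAHR muscle than in uninjected muscle. The part of these cell types in the results was not tested.

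The order of the AAV9-HSA-CAAHR libraries was not that of the AHR readout. CAAHR 34 had the highest Ahr of its group (22.8 scaled CPM) and the highest Cyp1a1, the classic AHR target, at 1680 scaled CPM against 1231 in CAAHR 31 and 1517 in CAAHR 36. CAAHR 31, with the lowest Ahr, had the largest sum over the 34 genes. Whether this sum depended on the AHR readout was not tested.

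**Figure D2:**
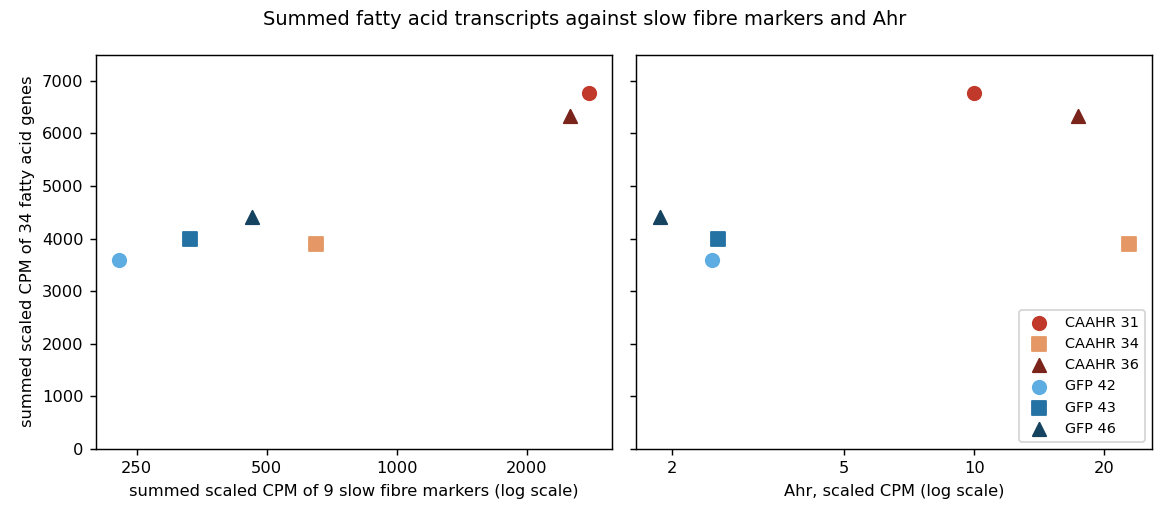
Summed scaled CPM of the 34 genes on the vertical axes, against the summed scaled CPM of 9 slow fibre markers (left, log axis) and against scaled CPM of Ahr (right, log axis), with 1 point for each of the 6 libraries. CAAHR 34 sits at 3905, at the height of the GFP libraries. On the left it lies at 649, above every GFP library in slow fibre markers, and on the right it has the highest Ahr.

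Genes for uptake and binding had a median log2 fold change of 0.84 over 5 genes, which was 0.41 without CAAHR 31, and none was called. Cd36, the fatty acid translocase (chr5:17781690-17888801, minus strand, GRCm38), was at 408, 153 and 295 scaled CPM in CAAHR 31, 34 and 36 and at 149, 141 and 155 scaled CPM in GFP 42, 43 and 46. CAAHR 31 and CAAHR 36 were above every GFP library and CAAHR 34 lay inside the GFP range. Its log2 fold change was 0.94 ± 0.33 (SE), with an adjusted p of 0.144, and 0.59 without CAAHR 31. Fabp3, the cytosolic binding protein of heart and muscle (chr4:130308595-130315463, plus strand), was at 578, 194 and 598 scaled CPM against 115, 175 and 238 scaled CPM. Again 2 libraries were high and CAAHR 34 lay between GFP 43 and GFP 46. Its log2 fold change of 1.38 ± 0.51 was one of the largest in the list, but its interval ran from 0.08 to 2.67 and the adjusted p was 0.189. Lpl, the lipase that releases fatty acids from lipoproteins (chr8:68880491-68907448, plus strand), was at 642, 208 and 429 scaled CPM against 194, 277 and 245 scaled CPM. CAAHR 34 was below GFP 43 and GFP 46, and the log2 fold change of 0.84 ± 0.41 did not pass (adjusted p 0.284) and was 0.41 without CAAHR 31. The fatty acid transport proteins Slc27a1 and Slc27a4 had log2 fold changes of 0.36 and 0.29. For Slc27a1 CAAHR 34, at 74.9 scaled CPM, was the lowest of all 6 libraries, against 123 in each of the other AAV9-HSA-CAAHR libraries. For Slc27a4 the values were 11.0, 12.1 and 15.2 scaled CPM against 9.76, 10.2 and 11.5 scaled CPM, so the groups overlapped only through CAAHR 31 and GFP 46.

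Of the carnitine genes, none was called. Cpt1a, the carnitine palmitoyltransferase 1 of liver and many other tissues (chr19:3322334-3385733, plus strand), was at 12.9, 14.6 and 15.6 scaled CPM in CAAHR 31, 34 and 36 and at 11.1, 9.04 and 5.74 scaled CPM in GFP 42, 43 and 46. The groups did not overlap, CAAHR 34 was not the lowest of its group, and among the controls GFP 46 was lowest instead of highest. It was 1 of 5 genes of the list for which CAAHR 34 was not the lowest of its group, with Slc27a4, Slc22a5, Acsl6 and Ehhadh. The log2 fold change was 0.73 ± 0.22 with an adjusted p of 0.0782, and without GFP 42 it was 0.96 with an adjusted p of 0.0304. Cpt1b, the muscle isoform (chr15:89416405-89425863, minus strand), was at 71.8, 58.4 and 81.6 scaled CPM against 58.9, 60.6 and 57.0 scaled CPM. CAAHR 34 was inside the GFP range, and the log2 fold change was 0.26 ± 0.12 (adjusted p 0.225). Per kilobase of exon, Cpt1a made up 7.33%, 9.91% and 7.76% of the sum of both isoforms in CAAHR 31, 34 and 36 and 7.70%, 6.18% and 4.25% in GFP 42, 43 and 46. CAAHR 31 was below GFP 42 in this share, so the groups overlapped, at means of 8.33% ± 1.38 and 6.04% ± 1.73 (SD, n = 3). Another annotated gene, Gm44502, covers 81.4% of the exon bases of Cpt1b on the same strand and was not analysed here.

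Further along the same route, Cpt2, which returns the acyl group to coenzyme A inside the mitochondrion, was at 77.3, 41.8 and 64.3 scaled CPM in CAAHR 31, 34 and 36 and at 36.1, 41.96 and 43.4 scaled CPM in GFP 42, 43 and 46. CAAHR 34 lay inside the GFP range, and the log2 fold change of 0.59 ± 0.21 had an adjusted p of 0.128 and was 0.38 without CAAHR 31. Crat, the carnitine acetyltransferase that buffers acetyl-CoA, was at 391 to 489 scaled CPM against 411 to 424 scaled CPM, with a log2 fold change of 0.10 whose interval ran from -0.16 to 0.35. Slc22a5, the carnitine carrier of the cell membrane, was at 10.3, 10.5 and 12.4 scaled CPM against 10.03, 9.78 and 9.42 scaled CPM. Here the groups did not overlap, but the log2 fold change was only 0.19 ± 0.11 (adjusted p 0.366).

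**Figure D3:**
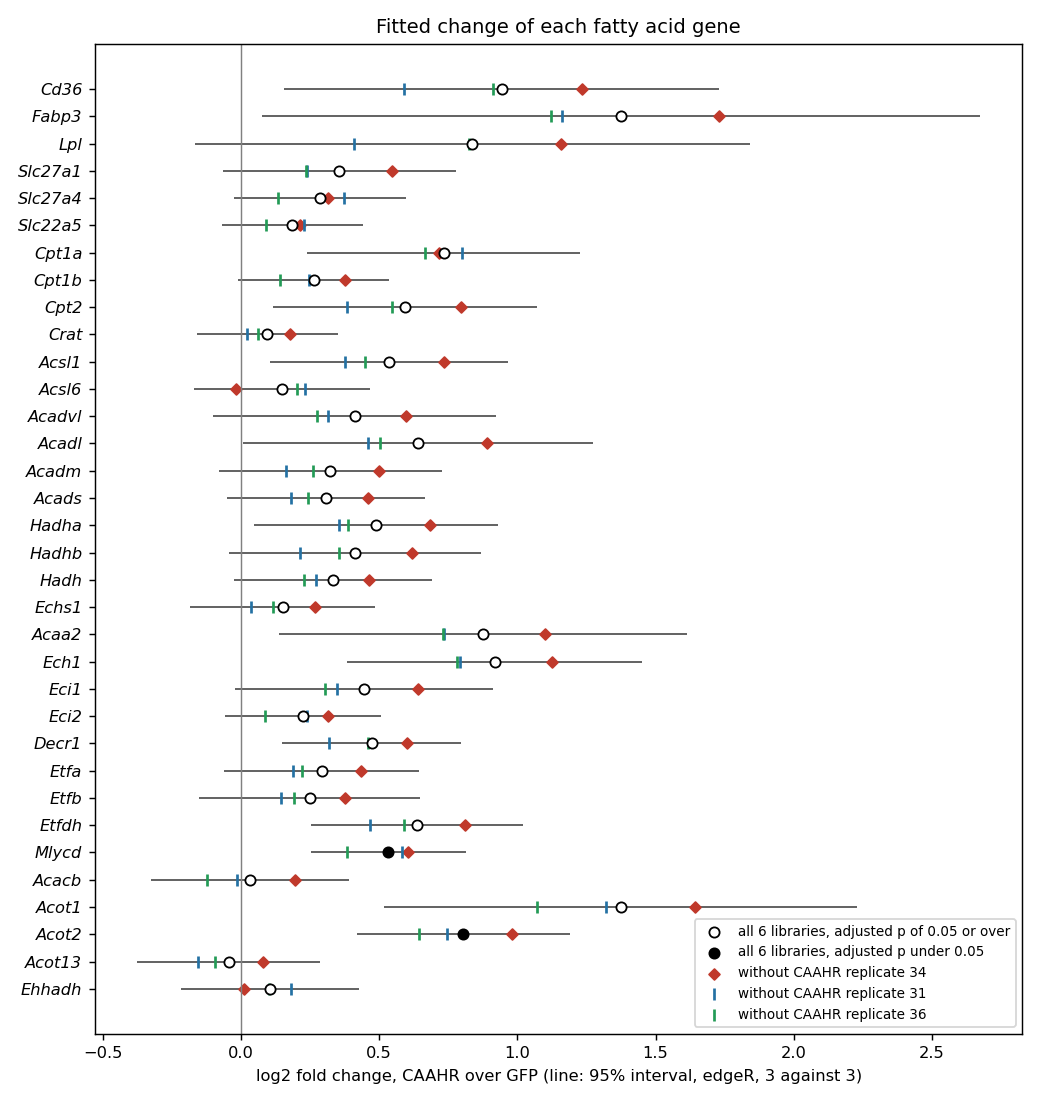
Log2 fold change of AAV9-HSA-CAAHR over AAV9-HSA-GFP for the 34 genes by role, as circles with lines for the 95% interval of the edgeR quasi-likelihood fit, filled where the adjusted p was under 0.05, and marks for the fold change without 1 AAV9-HSA-CAAHR library. All circles except Acot13 lie above 0, from 0.03 for Acacb to 1.38 for Fabp3, the marks without CAAHR 34 lie mostly to the right of them, and the called genes Acot2 and Mlycd stand at 0.80 and 0.53.

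The acyl-CoA synthetases parted by library. Acsl1, the main long-chain synthetase of oxidative muscle (chr8:46471037-46536051, plus strand), was at 366, 211 and 337 scaled CPM in CAAHR 31, 34 and 36 and at 194, 213 and 223 scaled CPM in GFP 42, 43 and 46. CAAHR 34 lay among the controls, and the log2 fold change of 0.54 ± 0.19 had an adjusted p of 0.125. Acsl6 was at 47.6, 65.5 and 49.7 scaled CPM against 55.7, 47.8 and 43.3 scaled CPM. In Acsl6 the order was turned round, with CAAHR 34 the highest and GFP 46 the lowest of all libraries, and its log2 fold change of 0.15 ± 0.14 (adjusted p 0.585) became -0.02 without CAAHR 34. Per kilobase, Acsl1 was 83.2% ± 6.92 of the sum of both synthetases in AAV9-HSA-CAAHR (75.3% in CAAHR 34) and 80.2% ± 3.17 in AAV9-HSA-GFP. Acsl6 was 1 of only 2 genes of the list with CAAHR 34 highest in its group, the other being Ehhadh.

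The 4 acyl-CoA dehydrogenases, which carry out the first oxidation for very long, long, medium and short chains, had log2 fold changes of 0.41 for Acadvl, 0.64 for Acadl, 0.32 for Acadm and 0.31 for Acads. None was called, and the adjusted p was 0.205 for Acadl and 0.277 to 0.314 for the rest. Acadl (chr1:66830839-66863277, minus strand) was at 311, 153 and 296 scaled CPM in CAAHR 31, 34 and 36 and at 141, 153 and 194 scaled CPM in GFP 42, 43 and 46. CAAHR 34 was thus at the level of GFP 43, and for Acads, at 45.7 scaled CPM, it fell between GFP 42 and GFP 43. For Acadm CAAHR 34 was at 235 scaled CPM, next to GFP 42 at 233. Exons of Dvl2 on the opposite strand cover 42.9% of the Acadvl exon bases, and since counting used strand only for stranded libraries, and whether these were stranded was not stated, some of the Acadvl counts are uncertain.

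The later steps of the spiral gave a median log2 fold change of 0.41 over 5 genes. Hadha, the alpha subunit of the mitochondrial trifunctional protein (chr5:30118304-30155162, minus strand), was at 509.6, 304 and 490.1 scaled CPM in CAAHR 31, 34 and 36 and at 274, 305 and 348 scaled CPM in GFP 42, 43 and 46. Hadhb, its beta subunit (chr5:30155248-30184593, plus strand), was at 384, 208 and 327 scaled CPM against 214, 237 and 240.3 scaled CPM. In both subunits 2 libraries were above all controls, whereas CAAHR 34 was inside the GFP range for Hadha and below it for Hadhb. Their log2 fold changes were 0.49 ± 0.19 and 0.41 ± 0.20 (adjusted p 0.168 and 0.254), and per kilobase Hadha made up 51.8% ± 1.59 of the pair in AAV9-HSA-CAAHR and 50.3% ± 1.75 in AAV9-HSA-GFP. The subunits that share the printed intergenic stretch were therefore near equal per kilobase in every library, with Hadha at 49.1% to 53.1% of the pair. Acaa2, the thiolase of the last step, was at 178, 97.8 and 178 scaled CPM against 61.0, 75.1 and 111 scaled CPM. CAAHR 34 lay below GFP 46, and the log2 fold change of 0.88 ± 0.31 had an adjusted p of 0.147. Hadh and Echs1, the short-chain dehydrogenase and hydratase, had log2 fold changes of 0.33 and 0.15 (adjusted p 0.238 and 0.598).

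Of the auxiliary enzymes for unsaturated chains, Ech1 came nearest to a call. This dienoyl-CoA isomerase (chr7:28825217-28832247, plus strand) was at 286, 167 and 288 scaled CPM in CAAHR 31, 34 and 36 and at 108, 125 and 159 scaled CPM in GFP 42, 43 and 46. The groups did not overlap, although CAAHR 34 was only just above GFP 46. Its log2 fold change was 0.92 ± 0.23 with an adjusted p of 0.0521, which was 0.00173 without CAAHR 34 and 0.0772 to 0.169 without any other library. Decr1, the 2,4-dienoyl-CoA reductase, was at 132, 87.9 and 111 scaled CPM against 75.6, 76.0 and 86.6 scaled CPM. Those groups did not overlap either, and the log2 fold change of 0.47 ± 0.14 had an adjusted p of 0.0777 (0.0105 without CAAHR 34). The enoyl-CoA isomerases Eci1 and Eci2 had log2 fold changes of 0.45 and 0.22, with adjusted p of 0.228 and 0.319.

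The 3 genes of electron transfer flavoprotein and its dehydrogenase had log2 fold changes above 0, and none was called. Etfdh, which passes the electrons on to ubiquinone (chr3:79603788-79629500, minus strand), was at 173, 104 and 150.4 scaled CPM in CAAHR 31, 34 and 36 and at 85.9, 94.7 and 94.8 scaled CPM in GFP 42, 43 and 46. Every AAV9-HSA-CAAHR library was above every control, and the log2 fold change was 0.64 ± 0.17 with an adjusted p of 0.0537 (0.00145 without CAAHR 34). Etfa and Etfb, the subunits of the flavoprotein, had log2 fold changes of 0.29 ± 0.16 and 0.25 ± 0.17, and in both CAAHR 34 lay inside the GFP range. Whether Etfdh moved more than these subunits was not tested. Per kilobase, Etfa was 71.4% ± 0.508 of the subunit pair in AAV9-HSA-CAAHR and 71.0% ± 1.59 in AAV9-HSA-GFP. Another annotated gene, Gm45233, shares 53% of the Etfb exon bases on the same strand, so the Etfb counts are uncertain.

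Malonyl-CoA control held one of the called genes. Mlycd, the decarboxylase that removes malonyl-CoA (ENSMUSG00000074064, chr8:119394878-119411102, plus strand), was at 105, 101 and 134 scaled CPM in CAAHR 31, 34 and 36 and at 80.1, 72.3 and 82.2 scaled CPM in GFP 42, 43 and 46. All AAV9-HSA-CAAHR libraries, CAAHR 34 included, were above all controls. Mlycd rose by a log2 fold change of 0.53 ± 0.13, which is 1.45-fold, with an interval from 0.25 to 0.81 and an adjusted p of 0.0323. The adjusted p was 0.0146 without CAAHR 34 and missed the threshold without any other library, at 0.0639 without CAAHR 31, 0.109 without CAAHR 36, 0.0781 without GFP 42, 0.121 without GFP 43 and 0.0806 without GFP 46. Acacb, the mitochondrial acetyl-CoA carboxylase that makes malonyl-CoA, was at 337, 239.5 and 382 scaled CPM against 298, 311 and 328 scaled CPM. The GFP libraries lay between CAAHR 34 and the other AAV9-HSA-CAAHR libraries, and the log2 fold change of 0.03 (interval -0.33 to 0.39) turned to -0.04 with upper quartile scaling, -0.01 without CAAHR 31 and -0.12 without CAAHR 36. Whether the change in Mlycd differed from that in Acacb was not tested.

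The thioesterases, which release free fatty acid from acyl-CoA, held the other. Acot2, the mitochondrial long-chain enzyme (ENSMUSG00000021226, chr12:83987861-83993873, plus strand), was at 26.5, 17.99 and 29.7 scaled CPM in CAAHR 31, 34 and 36 and at 14.9, 13.6 and 14.0 scaled CPM in GFP 42, 43 and 46. All AAV9-HSA-CAAHR libraries were above the tightly grouped controls, with CAAHR 34 nearest to them. Acot2 rose by a log2 fold change of 0.80 ± 0.17, which is 1.75-fold, with an interval from 0.42 to 1.19 and an adjusted p of 0.0247. Its adjusted p was 0.000505 without CAAHR 34 and missed the threshold without CAAHR 31 (0.0874), CAAHR 36 (0.0775), GFP 42 (0.0586), GFP 43 (0.081) or GFP 46 (0.0999). Acot1, its cytosolic neighbour on the same strand with a start 21629 bases downstream, was at 1.21, 0.648 and 1.54 scaled CPM against 0.456, 0.312 and 0.529 scaled CPM. The groups did not overlap, and the log2 fold change of 1.37 ± 0.38 had an adjusted p of 0.0583. These neighbours are near-identical copies, and with only uniquely placed reads counted the Acot1 and Acot2 values are less certain than the others. Per kilobase, Acot1 made up 2.43% ± 0.428 of the pair in AAV9-HSA-CAAHR and 1.68% ± 0.404 in AAV9-HSA-GFP, and the shares overlapped. Acot13, a small thioesterase of mitochondria from another protein family, was at 44.2, 31.2 and 41.1 scaled CPM against 34.2, 41.5 and 44.5 scaled CPM. It was the 1 gene below 0, at a log2 fold change of -0.04 ± 0.15 (adjusted p 0.896), with CAAHR 34 below all controls, and its sign turned with other settings: 0.04 with library size only, 0.01 with limma-voom, 0.08 without CAAHR 34 and 0.04 without GFP 46.

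The peroxisomal gene of the list, Ehhadh, the bifunctional hydratase and dehydrogenase, was at 6.31, 7.95 and 7.09 scaled CPM in CAAHR 31, 34 and 36 and at 7.44, 6.54 and 5.87 scaled CPM in GFP 42, 43 and 46. The groups overlapped, and the log2 fold change was 0.11 ± 0.14 (adjusted p 0.720).

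Over the whole list, 8 genes had groups that did not overlap, all of them higher in AAV9-HSA-CAAHR (Slc22a5, Cpt1a, Ech1, Decr1, Etfdh, Mlycd, Acot1 and Acot2), against 15% of all tested genes, and 0 were lower without overlap, against 14.9%. The share of 8 in 34 rests on CAAHR 34, since the other AAV9-HSA-CAAHR libraries were both above the GFP range for 30 genes, against 22.6% of all tested genes.

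Levels were compared between genes per kilobase of exon (scaled CPM divided by the length of all annotated exons of a gene, overlaps counted once). That length can exceed the length of the transcript present in muscle, and the order below depends on it. In AAV9-HSA-GFP muscle Fabp3 was the most abundant, at a mean of 214 and a range of 140.0 to 289 scaled CPM per kilobase. Acadl, Etfa, Acadvl and Crat followed at means of 81.1, 80.1, 79.6 and 77.9, and their ranges of 70.1 to 96.7, 71.0 to 91.7, 64.4 to 99.6 and 76.3 to 78.7 scaled CPM per kilobase overlapped, so these neighbours in the order did not differ beyond their spread. Among the scarcest per kilobase were Slc27a4 at 2.37, Ehhadh at 2.22, Cpt1a at 1.13 and Acot1 at 0.110. Of the called genes Mlycd was mid-range at 26.3 and Acot2 low at 6.45 scaled CPM per kilobase in AAV9-HSA-GFP, against 38.1 and 11.3 in AAV9-HSA-CAAHR.

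**Figure D4:**
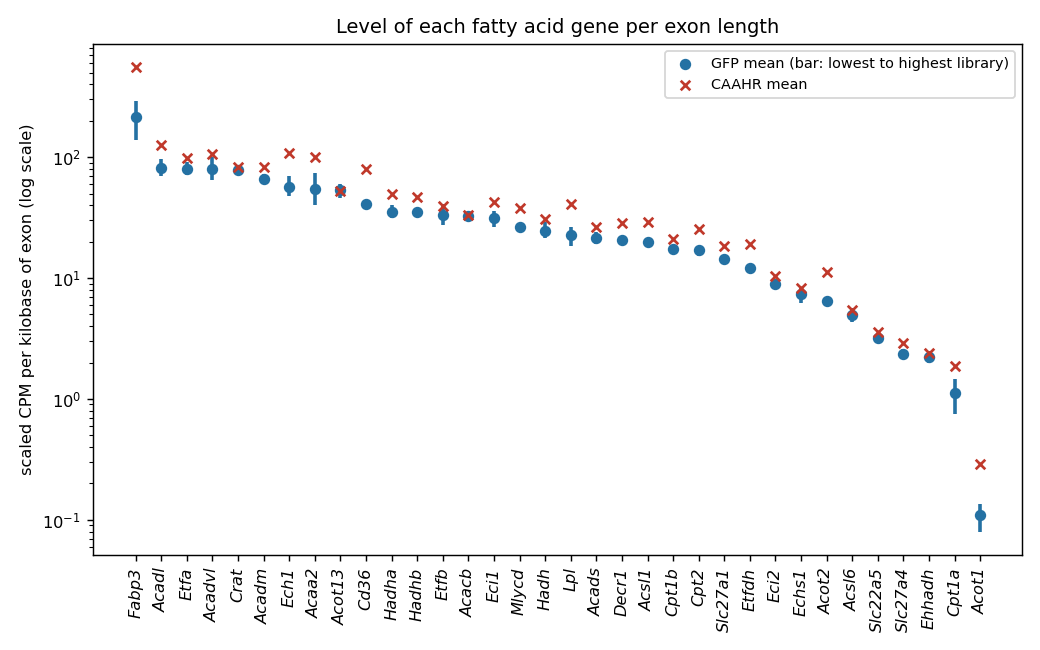
Level of each of the 34 genes as scaled CPM per kilobase of exon on a log axis, ordered by the mean of the AAV9-HSA-GFP libraries (dots, with bars from the lowest to the highest library) and with crosses for the AAV9-HSA-CAAHR mean. Fabp3 leads at a mean of 214 and Acot1 is last at 0.110, and the cross is above the dot for all genes except Acot13.

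Outside the list, 93 further genes of fatty acid metabolism were looked up, of which 82 were tested. Of these, 12 rose and 2 fell at an adjusted p under 0.05, against 3.04% and 4.57% of all tested genes. At an unadjusted p under 0.05, 29 were higher and 4 lower, against 11.3% and 12.6% of all tested genes. Their median log2 fold change was 0.14. By role the calls were 6 higher and 1 lower of 12 genes of peroxisomal oxidation, 1 lower of 11 transport and carnitine genes, 1 higher of 8 activation genes, 1 higher of 15 other mitochondrial genes, 2 higher of 22 regulators, 2 higher of 8 genes known as PPAR targets, and 0 of 6 thioesterases (0 at an unadjusted p under 0.05). The total of 14 calls was 7 without CAAHR 31, 24 without CAAHR 34, 5 without CAAHR 36, 6 without GFP 42 and 8 without GFP 43 or without GFP 46, and 23 by DESeq2. The share of all genes called was 3.28% to 10.7% in the fits with a library left out and 12.1% by DESeq2.

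Several genes of peroxisomal oxidation, which shortens very long and branched chains, stood at like levels in all AAV9-HSA-CAAHR libraries. Pex11a, a peroxisome proliferation factor (chr7:79735957-79743131, minus strand), was at 30.1, 25.4 and 31.1 scaled CPM in CAAHR 31, 34 and 36 and at 13.2, 13.1 and 14.4 scaled CPM in GFP 42, 43 and 46. These groups were far apart, and Pex11a rose by a log2 fold change of 1.09 ± 0.11 (adjusted p 0.000708), a call kept with each library left out in turn. Acox3 rose by 0.53 ± 0.09, at 28.2 to 29.1 scaled CPM against 18.8 to 21.7 scaled CPM, and was also called in each of those fits. Decr2 (0.79), Hsd17b4 (0.44) and Scp2 (0.34), a reductase, the multifunctional enzyme and a thiolase with a sterol carrier domain, rose as well. Their calls were lost when any library other than CAAHR 34 was left out (adjusted p 0.054 to 0.162), and that of Scp2 without CAAHR 34 too (0.0564). Abcd2, a transporter of very long chains into the peroxisome, fell by 0.53 on the log2 scale, from 38.9 to 45.8 scaled CPM in AAV9-HSA-GFP to 25.5 to 33.4 scaled CPM in AAV9-HSA-CAAHR, a call lost without CAAHR 36 (adjusted p 0.0858), GFP 42 (0.0852) or GFP 43 (0.0956). The median log2 of this role over the GFP mean was 0.49, 0.19 and 0.37 in CAAHR 31, 34 and 36. Whether peroxisomal and mitochondrial genes differed in their change was not tested.

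**Figure D5:**
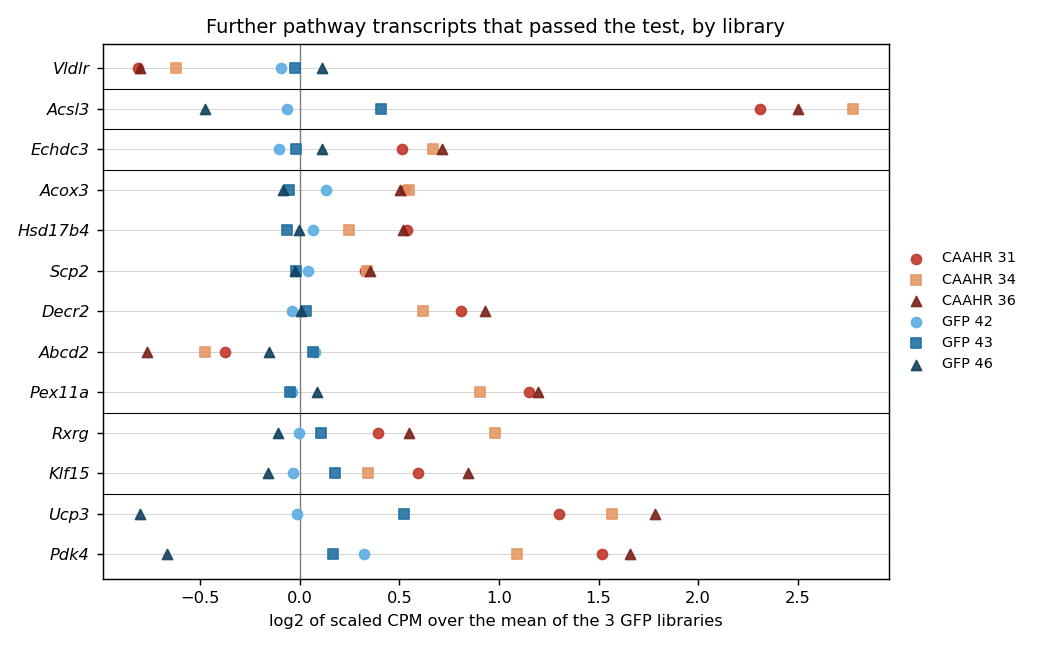
Log2 of each library's scaled CPM over the mean of the 3 AAV9-HSA-GFP libraries (horizontal axis) for 13 further genes that were called, with 1 point for each of the 6 libraries. Acsl3 stands farthest from 0 with a log2 fold change of 2.54, Vldlr and Abcd2 lie below 0, and CAAHR 34 lies near the other AAV9-HSA-CAAHR libraries for Acox3 and Scp2.

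Among the other called genes, Acsl3, a long-chain acyl-CoA synthetase of lipid droplets (chr1:78657825-78707743, plus strand), was at 171, 237 and 195 scaled CPM in CAAHR 31, 34 and 36 and at 33.0, 45.7 and 24.7 scaled CPM in GFP 42, 43 and 46. CAAHR 34 was the highest library, as it was for Ahr, and the log2 fold change was 2.54 ± 0.23 (adjusted p 0.00109), 5.83-fold. Per kilobase, Acsl3 was below Acsl1 in AAV9-HSA-GFP (7.91 against 20.04 scaled CPM per kilobase) and above it in AAV9-HSA-CAAHR (46.1 against 29.1). That turn rests on the exon lengths used, 4357 bases for Acsl3 and 10483 for Acsl1. Without division by length, Acsl3 stayed below Acsl1 in AAV9-HSA-GFP (means of 34.5 against 210 scaled CPM) and in AAV9-HSA-CAAHR (201 against 305). Vldlr, a lipoprotein receptor that works beside lipoprotein lipase, fell from 318, 334 and 366 scaled CPM in GFP 42, 43 and 46 to 193, 220.3 and 195 scaled CPM in CAAHR 31, 34 and 36, by 0.74 on the log2 scale. Acsl3 and Vldlr both stayed called with each library left out. Echdc3, a hydratase relative, rose by 0.63, and its call was lost when any library other than CAAHR 34 was left out (adjusted p 0.0546 to 0.123).

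Regulators and PPAR targets gave 4 calls. Pdk4, the kinase that turns off pyruvate dehydrogenase when fat is burnt, was at 1287, 958 and 1416 scaled CPM in CAAHR 31, 34 and 36 and at 562, 504 and 283 scaled CPM in GFP 42, 43 and 46. The log2 fold change of 1.44 ± 0.26 (adjusted p 0.0181) lost its call without CAAHR 31 (0.0638) or CAAHR 36 (0.0625). Ucp3, a mitochondrial carrier of muscle, was at 313, 377 and 438 scaled CPM against 126, 183 and 73.0 scaled CPM, and its log2 fold change of 1.56 ± 0.33 (adjusted p 0.0406) was called without GFP 43 or GFP 46 and missed without CAAHR 31 (0.0714), CAAHR 34 (0.102), CAAHR 36 (0.129) or GFP 42 (0.123). In both genes, as in Cpt1a, GFP 46 was the lowest library, the reverse of its place in most genes of the pathway. Rxrg, a retinoid X receptor, rose by 0.66 and Klf15, a transcription factor of lipid use in muscle, by 0.61. The call of Rxrg was lost without CAAHR 36 (0.0648), GFP 42 (0.0817), GFP 43 (0.0601) or GFP 46 (0.113), and that of Klf15 without CAAHR 31 (0.0885), CAAHR 36 (0.103), GFP 42 (0.0897) or GFP 46 (0.115).

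Nuclear receptors of the regulator list differed among themselves, and Rxrg was the 1 called. Ppara was at 12.7, 3.41 and 13.4 scaled CPM in CAAHR 31, 34 and 36 and at 1.70, 2.98 and 3.02 scaled CPM in GFP 42, 43 and 46, a log2 fold change of 1.94 ± 0.57 with an adjusted p of 0.109. Esrrg was at 75.3, 20.6 and 48.4 scaled CPM against 10.9, 19.5 and 16.8 scaled CPM, a log2 fold change of 1.61 ± 0.53 (adjusted p 0.148). Esrrb, its relative, had a log2 fold change of 1.69 ± 0.58 (adjusted p 0.159). In Ppara, Esrrg and Esrrb, CAAHR 31 and CAAHR 36 were far above the controls and CAAHR 34 just above the highest control, so the groups did not overlap. The other nuclear receptors of the list, given after their values were seen, had log2 fold changes of 0.08 for Esrra, 0.02 for Ppard and for Pparg, -0.05 for Rxra and -0.08 for Rxrb. Plin5, a coat protein of lipid droplets next to mitochondria, was at 32.5, 12.1 and 33.6 scaled CPM against 5.95, 8.44 and 12.01 scaled CPM (log2 fold change 1.56, adjusted p 0.125). Angptl4, an inhibitor of lipoprotein lipase, had a log2 fold change of 0.92 (adjusted p 0.0751) with no overlap between groups, at 3.92, 4.13 and 7.10 scaled CPM against 3.05, 1.92 and 3.002 scaled CPM. The log2 fold changes of Slc22a4 (0.94), Acad10 (0.69), Prkag3 (0.61) and Acsf2 (0.57), a carnitine and ergothioneine carrier, an acyl-CoA dehydrogenase relative, a muscle subunit of AMP-activated kinase and an acyl-CoA synthetase relative, also missed the threshold, with adjusted p of 0.108, 0.0581, 0.0866 and 0.144.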

How the data were processed

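Poly(A) RNA of the 6 muscles was sequenced as paired ends. Per the labels and the study's methods, the authors trimmed reads with Trimmomatic 0.36, aligned them to GRCm38 with STAR 2.5.2b and deposited unnormalised whole-number counts per gene of uniquely placed exon reads (featureCounts, by strand where a library was stranded, which was not stated for these). Replicates were not pooled. The 174 rows without a symbol were kept as genes.

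The counts were tested with edgeR 4.0.16 in R 4.3.3: filterByExpr, TMM scaling and the robust quasi-likelihood F test of 3 against 3 libraries without covariates, two-sided, with Benjamini-Hochberg adjustment over all 15847 tested genes at 0.05. Standard errors came from the F statistic, intervals cover 95%, and TMM factors ran from 0.959 to 1.05. Exon lengths and positions came from GENCODE on GRCm38, and a length covers all annotated exons of a gene, overlaps counted once. Totals of 43432994 to 58825752 counts leave counting error small beside the spread of libraries, and within groups no pair of libraries was a repeat (chi-square per degree of freedom at least 23.7). The steps were tested on simulated data. The study's own test was DESeq2. Alternatives used DESeq2 1.42.0, limma 3.58.1 (voom), other scalings and filters, and each library left out.

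The genes and lists were chosen with earlier results of these data known. All 34 genes were named. Of 93 further genes, those at an adjusted p under 0.05 were named, except 1 that is not reported here, and up to 12 at an unadjusted p under 0.05 with an absolute log2 fold change over 0.5. Of marker lists, Myh7 and defining markers of lists that moved were named.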

Additional observations from a re-analysis of the deposited data

How the results depend on the processing

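Among 476 checks of single genes of the list under other settings, 406 kept direction and side of the threshold, 52 came to pass it, 10 no longer passed and 8 turned sign (Acsl6, Acacb and Acot13). With a library left out, the log2 fold change ran from -0.016 to 0.25 for Acsl6, from -0.12 to 0.19 for Acacb and from -0.15 to 0.082 for Acot13. That of Acacb was -0.041 with upper quartile scaling, and that of Acot13 was 0.043 with library size only and 0.0095 by limma-voom. Of 322 checks of the further genes, 251 kept both, 28 came to pass, 43 no longer passed and 0 turned. The 2 called genes of the list became 5 with library size only (9.31% of all genes) and 15 without a filter on low counts (8.62% of 28661 genes). They were 11 by DESeq2 (12.1%) and 9 by limma-voom (9.22%). With a library left out they were 0 to 20, against 3.28% to 10.7% of all genes. These shares of all genes count calls in both directions. The 14 genes higher at an unadjusted p under 0.05 became 22 with library size only, 23 without a filter and 26 by limma-voom. They were 7 to 26 with a library left out. Shares of all genes at an unadjusted p were not computed for these settings, so an excess cannot be read from these counts. The 14 further genes called became 23 by DESeq2 and 5 to 24 with a library left out. Peroxisomal genes called higher were 3 to 7 and those called lower 0 to 1 with a library left out, and 0 were called lower with library size only, which moved the median of all genes to a log2 fold change of 0.09 (-0.06 with upper quartile scaling). With a GFP library left out, genes above the GFP range in CAAHR 34 were 11 to 18 and below it 5 to 15. Those below it were 0 to 2 in CAAHR 31 and 0 to 1 in CAAHR 36. Leaving out a control can only narrow the GFP range, so these counts could not fall. The matching shares of all genes were not computed. The difference in per-kilobase share, AAV9-HSA-CAAHR minus AAV9-HSA-GFP, ran from -0.51 to 0.98 percentage points for Etfa with Etfb and from -1.57 to 1.92 for Slc27a1 with Slc27a4. The cause of these shifts was not tested. Fits with a library left out also had fewer libraries and a different number of genes. The median log2 fold change of the list kept its sign throughout, at 0.29 to 0.60. No paired analysis was possible because no replicate number occurred in both groups. Depth limited Acot1, at 13 to 94 counts, more than the other genes.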
